A study of Mus musculus with 2 samples.

Results

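The apolipoprotein genes Apoe, Apoc1, Apoc2, Apoc3, Apoc4, Apoa1, Apoa2, Apob, Apod and Apom were examined in the inguinal white adipose tissue of mice without ApoE. These 10 genes were chosen by name, and 9 of them had an Affymetrix probe set of their own, among 19938 named genes on the array. The probe set of Apoc2 is also annotated to Gm44805, a gene that RefSeq places over both Apoc4 and Apoc2, so its signal could not be given to Apoc2 alone, and it is described but left out of the counts.

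Apolipoproteins are the protein coats of lipoprotein particles. They hold the lipid in solution, switch lipases and lecithin-cholesterol acyltransferase on or off, and bind the receptors that clear the particle. Liver and intestine make most of the circulating pool, whereas ApoE is also made by macrophages and adipocytes, and mice without it accumulate remnant lipoproteins in the blood. Apoe, Apoc1, Apoc4 and Apoc2 are neighbours in a single cluster on chromosome 7.

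The study paired Ucp1-/-;ApoE-/- (DKO) mice with ApoE-/- (ApoE-KO) mice, all male C57BL/6J, kept at 23 °C on chow and then given 9 weeks of a high-fat diet from 9 weeks of age. Uncoupling protein 1, the heat-producing channel of brown and beige fat, is missing in the first genotype only, and the Apoe disruption is shared by both, so no group here shows the level of any gene in mice with intact Apoe. RNA of 3 mice of each genotype was pooled and read on 1 array. The spread between mice was not measured, no test was possible, and every difference below is a description of 2 arrays without a replicate check. In bulk tissue, fewer cells of a type and less RNA per cell cannot be told apart.

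All values are linear intensities, and each difference is the log2 intensity of the array labelled DKO minus that of the array labelled ApoE-KO. An expression floor was set at the median over named probe sets, an intensity of 196.9. It is not a detection limit, but a signal under it was not separated from background here. Among the 9891 genes on or above the floor, 3.49% differed at least 2-fold and 11.3% at least 1.5-fold, with 2.79% at least 2-fold higher and 0.698% at least 2-fold lower in the array labelled DKO. The middle 90% of the 10047 genes below the floor lay between -0.38 and 0.36. As the one internal gauge of technical error, the differences read by 2 probe sets of the same gene were compared in 576 genes above the floor. Their median gap was 0.07, and 90% of the gaps were at most 0.27. This gauge covers probe sets within the same arrays and says nothing about mice or hybridisations. Adipoq, the adipocyte hormone adiponectin, read 6164 and 6714, and Plin1, the main coat protein of adipocyte lipid droplets, 5019 and 5070 (arrays labelled DKO and ApoE-KO). The Ucp1 probe set read 2230 in the array labelled DKO against 219 in the array labelled ApoE-KO. That is the opposite of the label if the probes lie in the deleted part of the gene, whose position relative to them no source used here gives, so the arrays are called by their labels.

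No apolipoprotein gene reached a 2-fold difference between the arrays. Of the 9 genes, 4 (Apoe, Apoc1, Apoa2 and Apod) lay on or above the floor. At least 2-fold or 1.5-fold apart were 0 of these 4, beside 3.49% and 11.3% of all genes on or above the floor. The other 5 were below the floor in both arrays. The 9 differences ran from -0.34 for Apod to 0.58 for Apoa2, with 7 above and 2 below zero. Their median was 0.18, beside -0.01 over all named genes, but among the 4 genes above the floor 2 were higher and 2 lower.

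**Figure D1:**
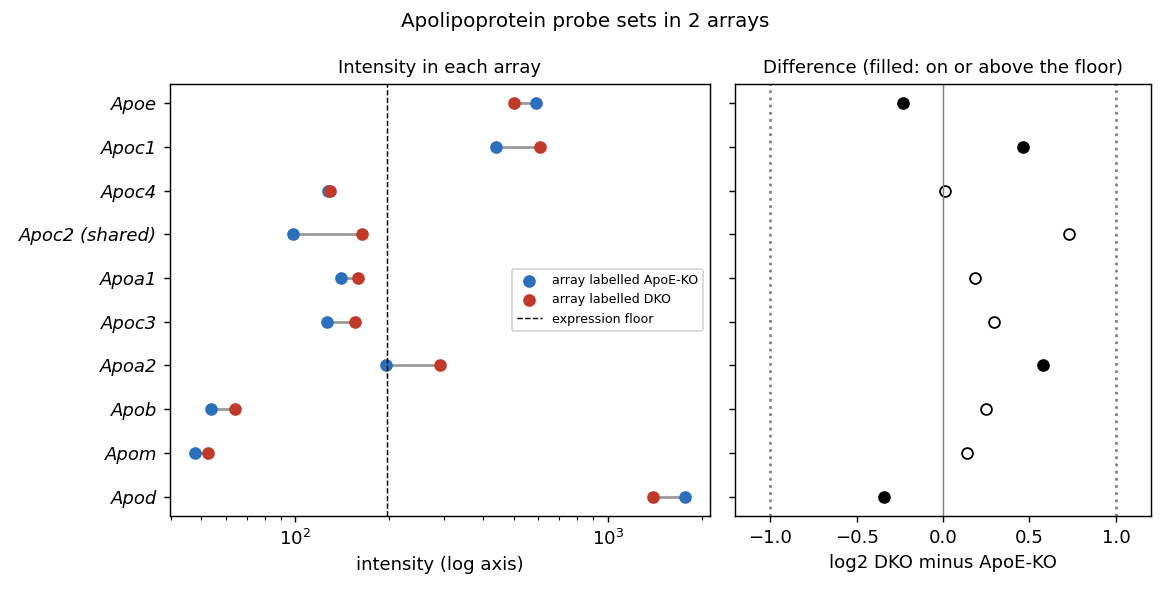
Left, intensity (log axis) of the 10 apolipoprotein probe sets in the array labelled ApoE-KO (blue) and the array labelled DKO (red), with the expression floor of 196.9 dashed. Right, log2 difference (DKO minus ApoE-KO) of the same probe sets, filled on or above the floor and open below it, with dotted lines at 2-fold. All 10 lie inside the dotted lines. The Apoc2 probe set is shared with Gm44805. Intensities of different probe sets are not comparable as amounts of RNA.

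Apoe encodes the ligand through which remnant particles reach the LDL receptor and LRP1. Its probe set (10560624) read 502 in the array labelled DKO against 589 in the array labelled ApoE-KO. This is a difference of -0.23, or -14.8% in the array labelled DKO. As many as 43.4% of the genes above the floor differed by that much or more. The signal stood above the floor in both arrays although the gene is disrupted in both. No source used here gives the exons that the probes read, so the value neither checks the disruption nor measures intact Apoe transcript.

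Apoc1 encodes a small exchangeable apolipoprotein that inhibits lipoprotein lipase and the binding of particles to receptors. Its probe set (10560618) read 607 in the array labelled DKO against 440 in the array labelled ApoE-KO. The difference was 0.47, or 1.38-fold. Of the genes above the floor, 17.4% differed by as much or more. The signs of the neighbours Apoe and Apoc1 were opposite, and held under each of 3 other scalings of the arrays. The size of the Apoe difference, unlike that of Apoc1, lay within the 0.27 that 90% of the gaps between probe sets of a gene did not exceed. Those gaps hold no error between arrays or mice, so they cannot show that either difference exceeds such error.

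Apoc2 encodes the activating cofactor of lipoprotein lipase. The probe set it shares with Gm44805 (10560608) read 164 in the array labelled DKO against 98.6 in the array labelled ApoE-KO. This difference, 0.73 or 1.66-fold, was larger than that of any of the 9 genes with a probe set of their own. Only 1.42% of the genes below the floor differed by as much or more, yet both readings were below the floor, and the difference is 0 once each is raised to it. Apoc4, whose product rides on very-low-density lipoproteins, read 129 and 128 (10560614), the smallest difference of the 9 at 0.01.

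The reference sequence before the start sites of these cluster genes is shown because they share a short stretch of chromosome and their differences varied. Among those with a probe set of their own, the differences ran from -0.23 for Apoe to 0.47 for Apoc1. The shared Apoc2 probe set stood at 0.73, with both readings below the floor. RefSeq windows (GRCm38.p6) were given for 8 of the 10 genes, 11 windows in all, and these letters come from the reference and not from the mice. Capitals mark any match, on either strand, to the words of promoter elements. The TATA box was searched as TATAAA. The element bound by NF-Y was searched as CCAAT, and the element bound by Sp1 as GGGCGG. The half-site of nuclear receptors, bound by PPAR and LXR with their partner RXR among others, was searched as AGGTCA. Each window is the 250 bases before a start site, read 5′ to 3′ toward the gene, and for Apoe, which has 3 windows, the most upstream is printed.
Apoe, chr7:19699189-19699438, minus strand: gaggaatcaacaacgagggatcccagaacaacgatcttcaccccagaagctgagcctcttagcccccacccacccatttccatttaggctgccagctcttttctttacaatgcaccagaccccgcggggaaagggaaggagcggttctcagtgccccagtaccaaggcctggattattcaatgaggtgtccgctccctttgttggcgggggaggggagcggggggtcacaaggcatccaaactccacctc
Apoc4, chr7:19681461-19681710, minus strand: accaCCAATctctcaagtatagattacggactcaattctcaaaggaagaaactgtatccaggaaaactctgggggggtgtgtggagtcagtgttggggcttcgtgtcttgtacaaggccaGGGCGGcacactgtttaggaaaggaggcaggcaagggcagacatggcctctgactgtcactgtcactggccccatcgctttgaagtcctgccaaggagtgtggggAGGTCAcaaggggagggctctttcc
Apoc2, chr7:19677942-19678191, minus strand: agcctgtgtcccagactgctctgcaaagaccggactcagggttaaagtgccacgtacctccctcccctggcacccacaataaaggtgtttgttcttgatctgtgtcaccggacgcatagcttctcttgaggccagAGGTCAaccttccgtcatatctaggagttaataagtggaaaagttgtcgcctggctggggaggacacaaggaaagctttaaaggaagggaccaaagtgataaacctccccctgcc

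Of all 32851 RefSeq windows cut to the same length, 12.4% hold the TATA box word TATAAA, 33.8% the NF-Y word CCAAT, 32.7% the Sp1 word GGGCGG and 14% the half-site AGGTCA. The printed Apoe window holds none of these words, and of its other 2 windows 1 holds TATAAA on both strands, beginning 100 and 96 bases before its start site. Apoc4 has all of them but TATAAA, and its AGGTCA ends 20 bases before the start site. Apoc2 has AGGTCA alone, beginning 115 bases before the start site. A match describes letters and is not a binding site, and a missing match says nothing about a factor.

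The genes next to the cluster were read in the same way. Clptm1, the nearest measured gene on the side of Apoc2, which codes for a transmembrane protein first linked to cleft lip and palate, went from 1645 in the array labelled ApoE-KO to 2191 in the array labelled DKO (0.41). Tomm40, the nearest on the side of Apoe and the channel of the outer mitochondrial membrane import complex, went from 691 to 989 (0.52). Nectin2, a cell adhesion molecule next to Tomm40, went from 198 to 303 (0.61). Within the cluster, Apoc1 (0.47) was also higher in the array labelled DKO, while Apoc4 (0.01) hardly differed and Apoe (-0.23) was lower. Of all genes above the floor, 17.4% differed by at least as much as Apoc1 in either direction. This run of genes was noticed after the values were seen, and its ends were set by them. Farther out the differences were small, the largest being -0.25 for Zfp296, which lay below the floor. Over the 20 nearest measured genes, 10 on each side and with Clptm1, Tomm40 and Nectin2 among them, the median was -0.08. It was -0.10 without Clptm1 and Tomm40. Of the 20, 6 were higher and 14 lower. At least 2-fold apart were 0 of the 13 above the floor, beside 3.49% of all genes above it.

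**Figure D2:**
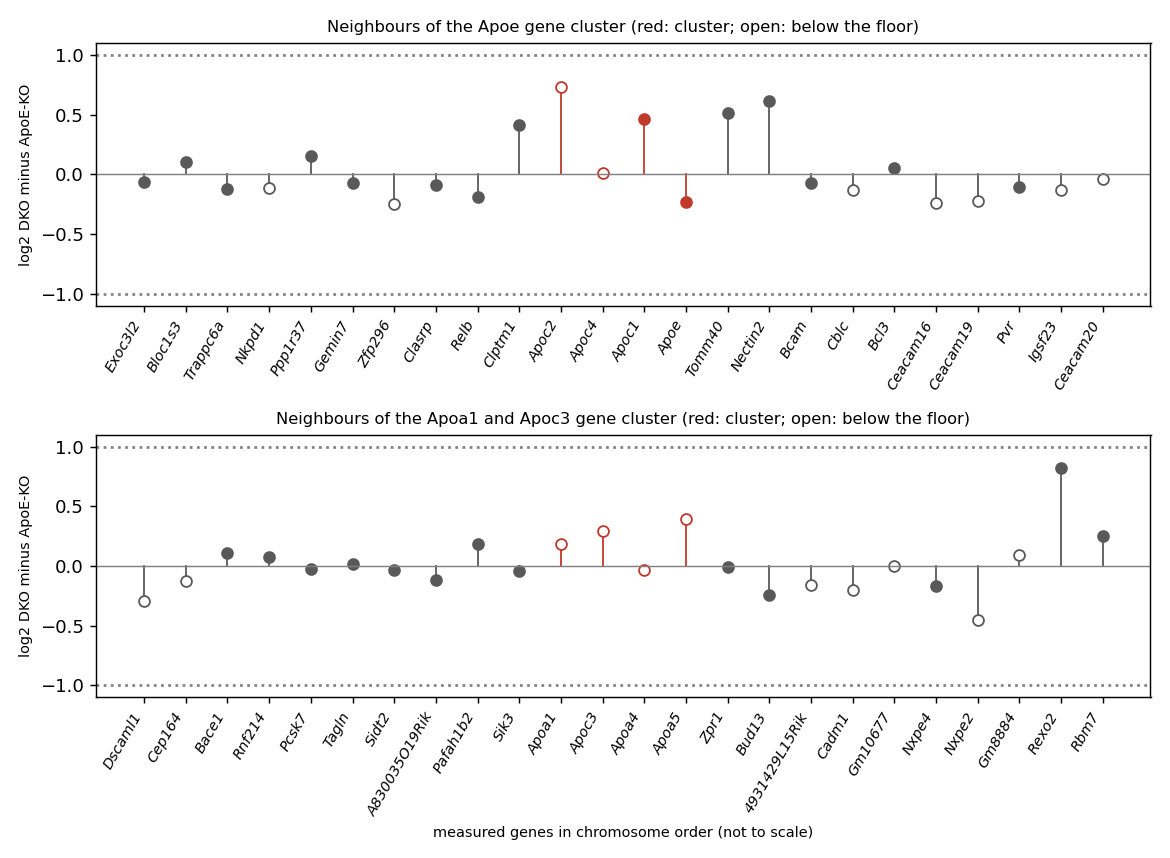
Log2 difference (DKO minus ApoE-KO) of measured genes in chromosome order around the Apoe cluster on chromosome 7 (top) and the Apoa1 and Apoc3 cluster on chromosome 9 (bottom), 10 genes on each side, cluster genes in red. Filled points lie on or above the floor and dotted lines mark 2-fold. Around Apoe, the points of Clptm1, Apoc1, Tomm40 and Nectin2 stand above 0.4, as does the open point of the shared Apoc2 probe set, and Apoe stands at -0.23.

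Apoa1, the main protein of high-density lipoprotein, and Apoc3, an inhibitor of lipoprotein lipase and of remnant uptake, share a cluster on chromosome 9 with Apoa4 and Apoa5. Apoa1 read 159 in the array labelled DKO against 140 in the array labelled ApoE-KO (10585005, 0.18). Apoc3 read 155 and 126 in the same order (10593169, 0.30). Apoa5, which promotes lipolysis by lipoprotein lipase, read 168 and 128 (0.39), and Apoa4, an intestinal apolipoprotein, 137 and 139 (-0.03). All of these readings lay below the floor in both arrays. The 20 nearest measured genes around this cluster had a median of -0.03, and the sign of so small a value turned under 2 scalings (0.02 with median centring, 0.01 with loess). The genes directly beside the cluster, Sik3 (-0.05) and Zpr1 (-0.01), hardly differed. Rexo2, a mitochondrial oligoribonuclease and the ninth gene on one side, was the single neighbour past 1.5-fold (2613 against 1482, 0.82).

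Apoa2, the second protein of high-density lipoprotein, had the largest difference of the 9 genes. Its probe set (10351546) read 291 in the array labelled DKO against 195 in the array labelled ApoE-KO, where it lay just under the floor. The difference was 0.58 (1.496-fold), just under 1.5-fold, which it passed under each of 3 other scalings (0.62 to 0.63). It was 0.56 once the lower reading is raised to the floor, and 11.5% of genes above the floor differed by as much or more. Apob, the structural backbone of very-low-density lipoproteins and chylomicrons, read 63.9 and 53.7 (10394394, 0.25). Both of these Apob readings were far under the floor, and 23.2% of genes below it differed by at least as much.

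RefSeq gives a pair of start regions for Apoa2, both printed because this gene had the largest difference of the 9. The capitals are as above.
Apoa2, nearer the coding part, chr1:171224804-171225053, plus strand: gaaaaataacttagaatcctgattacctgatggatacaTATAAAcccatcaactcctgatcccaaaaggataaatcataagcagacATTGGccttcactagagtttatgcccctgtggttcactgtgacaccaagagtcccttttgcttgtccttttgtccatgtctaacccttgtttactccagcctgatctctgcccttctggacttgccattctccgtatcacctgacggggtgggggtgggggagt
Apoa2, upstream, chr1:171221314-171221563, plus strand: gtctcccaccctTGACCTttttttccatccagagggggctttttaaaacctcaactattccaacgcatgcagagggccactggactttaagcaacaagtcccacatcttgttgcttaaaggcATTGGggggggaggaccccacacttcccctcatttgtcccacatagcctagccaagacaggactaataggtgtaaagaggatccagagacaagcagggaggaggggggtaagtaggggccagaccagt

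The nearer window holds TATAAA, beginning 212 bases before the start. Both windows hold a CCAAT match on the opposite strand. AGGTCA is found, on the opposite strand, in the upstream window only, beginning 238 bases before its start site. Across the 11 windows of the apolipoprotein genes, AGGTCA occurs in 3 (Apoa2 upstream, Apoc2 and Apoc4), TATAAA in 3, CCAAT in 3 and GGGCGG in 1. Of all RefSeq windows, 14%, 12.4%, 33.8% and 32.7% hold these words in the same order. Whether any factor binds these windows was not tested.

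Apod and Apom are lipocalins, which carry small lipids in a barrel-shaped pocket and are not related by sequence to the other apolipoproteins. Apod, which binds arachidonic acid and progesterone, read 1396 in the array labelled DKO against 1770 in the array labelled ApoE-KO (10439009). The difference was -0.34, or -21.1%, the lowest of the 9 as signed by the labels, and 27.7% of genes above the floor differed by as much or more. Apom, the carrier of sphingosine 1-phosphate on high-density lipoprotein, read 52.4 and 47.6 (10450444, 0.14), below the floor in both arrays.

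**Figure D3:**
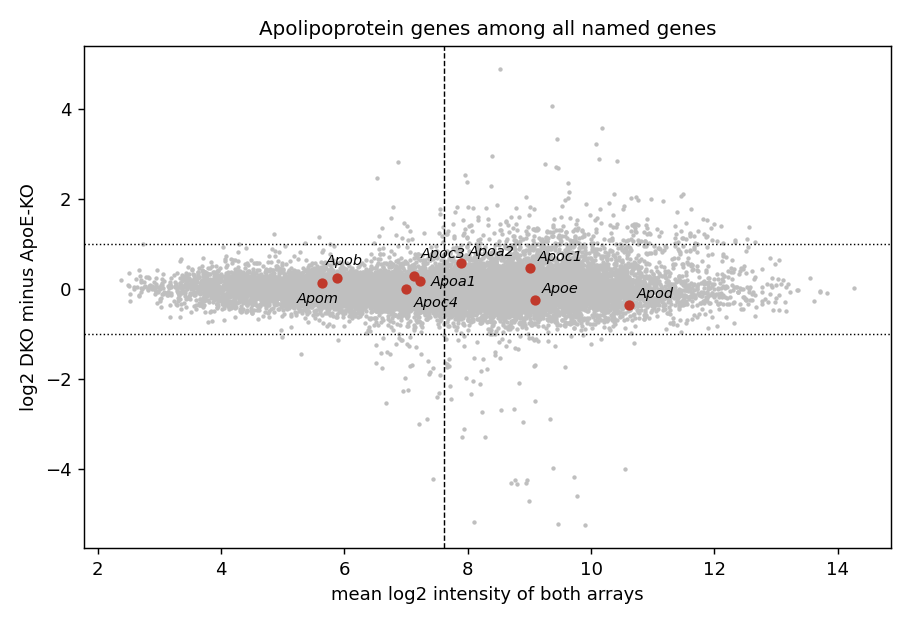
Log2 difference (DKO minus ApoE-KO) against mean log2 intensity for the 19938 named genes (grey), with the 9 apolipoprotein genes that have their own probe set in red. The dashed line is the floor (7.62) and the dotted lines mark 2-fold. The 9 red points, from -0.34 to 0.58, lie inside the grey cloud.

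Cells that make apolipoproteins were followed through marker lists. Of 28 macrophage markers, 26 were lower in the array labelled DKO, and their median was -0.42. At least 2-fold lower were 0 of the 23 above the floor. The summed intensity of all 28 was 28052 against 34482, and 4 of them lay below the floor in both arrays. Lpl, which is in the adipocyte list as well, gave 9504 and 8229 of these sums and was higher (0.21). The sums are therefore not a reading of macrophages alone. Csf1r, the receptor for macrophage colony-stimulating factor, read 852 against 1296, and Cd163 (-0.72) and Cybb (-0.71) had the largest differences. Fibroblast and progenitor markers, cells in which Apod is often found, were lower in 20 of 22 genes with a median of -0.52, and their summed intensity was 38882 against 56611. Pi16 (-1.13) was the 1 of 21 above the floor at least 2-fold lower, followed by Igfbp6 (-0.88). Apoe (-0.23) and Apod (-0.34) were lower in the array in which these lists were lower. Apoc1 (0.47) and Apoa2 (0.58), the other apolipoprotein genes on or above the floor, were higher in it. The part of these cells in the differences of the apolipoprotein genes was not tested. Adipocyte markers had a median of 0.06 over 17 genes, with summed intensities of 91546 and 86785.

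Hepatocyte markers were examined because liver is the main source of Apoa1, Apoa2, Apob, Apoc3 and Apom. Of 24 measured, 17 lay below the floor in both arrays, among them Fgb (108 and 69.4), Ahsg (78.5 and 60.3) and the liver transcription factor gene Hnf4a (133 and 129). The largest differences of the list were also among these, Serpina1c (186 and 62.1, 1.59) and Fgg (58.7 and 28.8, 1.03). Both are 0 once the readings are raised to the floor. Alb, the serum albumin gene, read 837 in the array labelled DKO against 417 in the array labelled ApoE-KO (1.01). It was the 1 of 7 genes above the floor at least 2-fold apart, beside 3.49% of all genes above it. Trf, the transferrin gene, stood at -0.44. The call of Alb was lost under quantile normalization (0.99) and an offset of 50 (0.93). Differences were positive in 16 and negative in 7 of the 24 genes, and positive in 3 and negative in 4 of those above the floor. The list's median was 0.14, but -0.007 over the genes above the floor, 0 with readings raised to the floor and 0.25 as a mean. Its summed intensities were 30599 and 31506, mostly from Cyp2e1 (10388 and 10436), Pck1 (6005 and 5806), Trf (4850 and 6574) and Hp (4849 and 4119). Rbp4 (1995 and 2680), a smaller part of the sums, is in the adipocyte list as well. Which cells gave the signal of the genes above the floor was not tested. Neither the sum nor the median above the floor is therefore a reading of liver cells. The part of the hepatocyte list in the differences of the apolipoprotein genes was not tested. Skeletal muscle markers were lower in 29 of 29 genes with a median of -2.95 (summed intensity 5305 against 54333), and brown and beige markers had a median of 2.01 over 19 genes. The median of endothelial markers was 0.12 and that of B cell markers -0.79. Nerve markers had a median of -0.15, which was -0.26 over the 7 of 16 genes above the floor, 0 with readings raised to the floor and -0.07 as a mean. Of 18 epithelial markers 17 lay below the floor in both arrays, so their median of 0.05 says little.

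The proteins that ApoE and ApoB particles meet at the cell surface showed no 2-fold difference. Of 31 receptor and binding-partner genes, 21 lay above the floor, 7 of these were higher and 14 lower, and the median of all 31 was -0.10. Over all genes above the floor, 3.49% differed at least 2-fold. The remnant receptor gene Vldlr read 2121 in the array labelled DKO against 1176 in the array labelled ApoE-KO (0.85). Sdc4, a heparan sulfate proteoglycan, read 584 and 332 (0.81). Lrp1, the large ApoE receptor, went the other way with 2013 and 2905 (-0.53), as did the scavenger receptor gene Stab2 with 174 and 252 (-0.54, or -0.36 once the lower reading is raised to the floor).

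Lipoprotein lipase and its controls, the system that ApoC proteins act on, had a median of 0.12 over 15 genes. Past 2-fold were 0 of the 13 above the floor, beside 3.49% of all genes above it. Lpl itself read 9504 and 8229 (0.21). Angptl8, which codes for an insulin-induced regulator of the lipase, came nearest to 2-fold with 428 and 224 (0.93). Lipa, the lysosomal acid lipase gene, stood at 0.66, Lmf1, a lipase maturation factor gene, at 0.52 and the protease gene Pcsk6 at -0.39.

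Genes of apolipoprotein lipidation, particle assembly and remodelling had a median of 0.04 over 27 genes, and -0.002 with quantile normalization. Among the 21 above the floor, Pla2g7, the lipoprotein-associated phospholipase that degrades platelet-activating factor, was the single gene past 2-fold, with 1463 in the array labelled DKO against 713 in the array labelled ApoE-KO (1.04). It fell just short with quantile normalization (0.9997) and an offset of 50 (0.99). Over all genes above the floor, 3.49% differed at least 2-fold. Sar1b, the coat GTPase of chylomicron export, stood at 0.57. Bmp1, which processes pro-ApoA-I, stood at -0.51, and the sterol efflux transporter genes Abcg1 and Abca1 at -0.50 and -0.34.

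Transcriptional regulators of apolipoprotein genes held the largest differences of the pathway lists. Of 38 measured, 28 lay above the floor, and 3 of these were at least 2-fold higher and 0 lower, where 2.79% and 0.698% of all genes above the floor were. Ppara, the receptor for fatty acids and fibrates that binds to several apolipoprotein promoters in liver, read 1009 in the array labelled DKO against 243 in the array labelled ApoE-KO (2.06, 4.16-fold). The coactivator genes Ppargc1a (660 and 244, 1.44) and Ppargc1b (769 and 329, 1.23) followed, and Cebpb stood at 0.76. Ppargc1a is also in the list of brown and beige markers, whose 16 genes above the floor included 13 at least 2-fold higher and 0 at least 2-fold lower, and the part of those cells in the differences of these regulators was not tested. The list's median was -0.03, and Nr1h3, which codes for the LXR alpha receptor that induces Apoe and the Apoc genes in macrophages and fat, stood at 0.19.

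Of other genes that carry an apolipoprotein name or ride on lipoproteins, 9 of 23 lay above the floor, and the median of all 23 was 0.03. Apool was the 1 of these 9 at least 2-fold higher, where 2.79% of all genes above the floor were. It read 683 in the array labelled DKO against 267 in the array labelled ApoE-KO (1.35, 2.56-fold). Despite its name, its product is a subunit of the MICOS complex, which shapes the cristae of mitochondria. Apoo, the partner subunit of the same complex, is read only by a pair of probe sets shared with the pseudogene Apoo-ps, which gave 1.60 and 1.62. Clu, the secreted chaperone clusterin or apolipoprotein J, read 909 and 1451 (-0.67). Pon3, a lactonase carried by high-density lipoprotein, stood at 0.54 and Apol6 at -0.36.

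**Figure D4:**
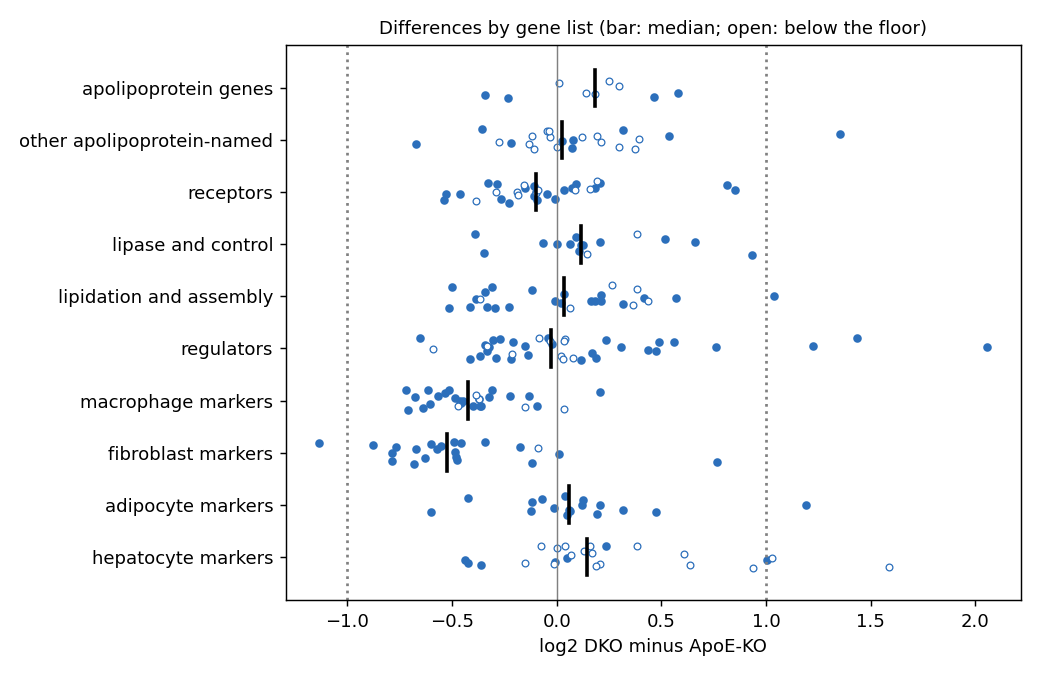
Log2 difference (DKO minus ApoE-KO) of each measured gene of the apolipoprotein genes, the 5 pathway lists and 4 marker lists, with vertical bars at the list medians. Filled points lie on or above the floor, open points below it, and dotted lines mark 2-fold. The pathway medians lie between -0.10 and 0.12, and the macrophage and fibroblast medians at -0.42 and -0.52.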

How the data were processed

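The authors deposited a linear intensity for each of 35557 probe sets and 2 arrays. Per the labels' protocols, Trizol-extracted RNA was labelled with an Affymetrix sense-strand kit. The scanner software, background correction, probe summarisation and scaling are in no source used here, and the column medians (152.1 and 157.65) differ. Log2 was taken with no pseudocount. Probe sets with 1 symbol (21789) were named through the platform annotation, those with several (1621) were left out of counts and 12147 were unnamed here. The brightest of several probe sets stood for a gene. A gene was called when on or above the floor and at least 2-fold apart, in place of a test. The calculation was run on simulated data with large differences added to genes well above the floor. That run checks the code only. It says nothing about small differences, genes near the floor or error between arrays.

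All 10 genes were named, with Ucp1, 4 genes above the floor and any 2-fold gene per pathway list, 2 per marker list (macrophage, fibroblast and hepatocyte lists only, the others being given by their medians), and the nearest and 1.5-fold neighbours. Further genes were named outside this rule, among them Abca1, Nr1h3, Lpl, Csf1r, Adipoq, Plin1 and other hepatocyte markers. They were picked by hand and do not stand for their lists. Members and lists were chosen with earlier results of these data known. RefSeq gave gene order and start regions. Alternatives were other scalings, offset, floors, thresholds, probe set means, windows and means. Python 3.11.15, pandas 2.3.3, numpy 2.4.6 and statsmodels 0.14.6 were used.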

Additional observations from a re-analysis of the deposited data

How the results depend on the processing

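With 1 array per genotype, the number of arrays limits every value, and no alternative replaces a replicate. No paired analysis was possible because each genotype has a single array. Under 6 alternatives (3 scalings, an offset of 50, probe set means, and readings under the floor set to it) no difference of the 9 apolipoprotein genes changed sign, with Apoe between -0.25 and -0.18, Apoc1 between 0.42 and 0.52, Apoa2 between 0.48 and 0.63 and Apod between -0.40 and -0.29. The count past 2-fold was 0 in each setting, also with no floor and a floor at percentile 75. At thresholds of 1.5-fold and 3-fold it was 0 as well, counted on the values as deposited only. Under each of the 3 scalings Apoa2 passed 1.5-fold (0.62 to 0.63). Setting readings under the floor to the floor, which by construction removes differences below it, left 2 of the 9 genes higher in place of 7 and brought the medians of the apolipoprotein genes, the neighbours of Apoe and the receptors to 0. The count of 2-fold genes in the lipidation list was 0 in place of 1 with quantile normalization and with the offset. The mean of the regulator list was 0.087 where its median was -0.03. Scalings moved the median of all genes by at most 0.05.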

Other observations

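Other apolipoprotein L genes are read by probe sets shared within a pair of copies. Both probe sets of Apol7e and Apol7b stood at -0.39, below the floor, and those of Apol9a and Apol9b at -0.19 and -0.28 (226 against 257 and 162 against 196, arrays labelled DKO and ApoE-KO). These values cannot be given to a single copy.

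Saa3, an acute-phase apolipoprotein made by adipocytes and macrophages, read 48.0 and 39.1 (0.30), and Saa1 15.5 and 12.0 (0.37), both far under the floor.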
